A study of Homo sapiens with 4 samples.

Results

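RNA-seq libraries of 4 untreated cultures of HaCaT, a human keratinocyte line that became immortal in culture, fell into replicates 2 and 3, in which interferon-stimulated genes were high, and replicates 1 and 4, in which they were low. All 4 libraries of the series carry the same label, with the same line, the same absence of treatment and total RNA as the molecule, and the study describes them as biological repeats. HaCaT is a single line, so the libraries compare cultures and not donors. The sides were chosen from the interferon genes of these same libraries, so every difference between them is given as a description, without a test or a p-value.

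Interferons are secreted proteins that a cell releases when its sensors meet viral or misplaced nucleic acid. Type I interferons (such as IFNB1) and type III interferons (the IFNL genes) act through different receptors on the same kinases and on a complex of transcription factors that contains IRF9, which binds the interferon-stimulated response element in front of target genes. Keratinocytes respond to both types, and type III interferons act mainly on epithelia. The question here was which genes outside this known response were also higher or lower in replicates 2 and 3.

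Levels are given as TPM, the reads counted on a gene divided by its length and scaled to the same sum over all protein-coding genes in each library. A gene followed the split when its TPM in each of replicates 2 and 3 was at least 2 times, or at most 1/2 of, that in each of replicates 1 and 4, with counts under 3 raised to 3. All 4 pairs had to pass, so replicate 4 alone had to differ from both replicates 2 and 3. Of 19233 protein-coding genes, 12165 had a mean of at least 1 TPM and were examined: 344 belonged to lists of known interferon genes and 11821 did not. The mean was taken over all 4 libraries, so a gene could pass through its higher libraries alone. AMH, at 0.577 and 0.579 TPM in replicates 1 and 4, passed through replicates 2 and 3. COLCA1 passed through replicate 1, where it was at 7.81 TPM. The counts of called genes below include such genes. Replicate 1 had 73082279 reads, the other libraries had 17056035 to 19745170, and 76.1% of those in replicate 1 against 95.3% to 96.4% in the others lay on protein-coding genes. Replicate 1 also held 1212 TPM of HIST1H4K, a replication-dependent histone gene whose mRNA normally lacks a poly(A) tail and which belongs to a family of near-identical copies, against 4.67 to 15.9 TPM elsewhere. Replicate 1 stood apart over all genes, with Spearman correlations of 0.754 to 0.780 across genes with the other libraries, which had 0.944 to 0.967 among themselves.

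Outside the interferon lists, 48 of 11821 genes (0.406%) were higher in replicates 2 and 3 and 111 (0.939%) were lower. Among the 344 interferon-list genes, which chose the sides, 58 (16.9%) were higher and 2 (0.581%) were lower. Without replicate 1 the same 2-fold limit gave 126 (1.07%) higher and 232 (1.96%) lower genes outside the lists, and 66 (19.2%) higher and 6 (1.74%) lower genes inside them, beside 1.58% higher and 1.96% lower over all genes. The smallest of the 4 pairwise log2 ratios, used here to rank genes, had a median of 1.35 over the 48 higher genes, 1.25 over the 111 lower genes and 2.28 over the 58 interferon-list genes. In bulk RNA, more responding cells and more RNA in each cell cannot be told apart. This ratio reached 2 on the log2 scale in 5 of 48, 3 of 111 and 39 of 58, so genes outside the lists lay mostly near the limit. Counting intervals lay above 1 in all 4 pairs for 44 of the 48 and 100 of the 111. The genes had been selected for 2-fold ratios in these pairs, which favours such intervals, so the counts are no separate support. The intervals allow for counting error alone: without molecular identifiers, reads from one molecule cannot be told from reads of several.

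**Figure D1:**
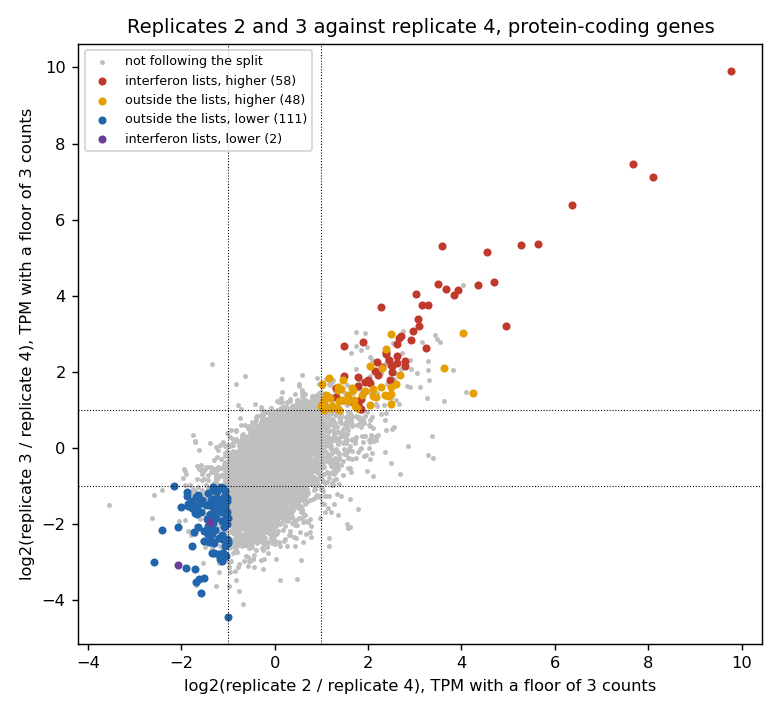
Each point is a protein-coding gene with a mean of at least 1 TPM, with its log2 ratio of replicate 2 to replicate 4 on the x axis and of replicate 3 to replicate 4 on the y axis, counts under 3 raised to 3. The 58 interferon-list genes higher in replicates 2 and 3 (red) extend far along the diagonal, while the 48 higher (orange) and 111 lower (blue) genes outside the lists sit close to the dotted lines at 2-fold; 2 interferon-list genes were lower (purple).

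The split was not the main difference between the cultures. Replicates 2 and 4, on opposite sides, differed by at least 2-fold in 6.84% of the genes, whereas replicates 2 and 3, on the same side, did so in 17.4%, or 11.9% once each ratio was centred on its median. Replicates 3 and 4 differed in 22.98%, or 18.4% after centring. Replicate 3 had the lower values for most genes on this scale, with a median log2 difference of −0.34 from replicate 4, whereas the median for replicate 2 against replicate 4 was −0.01. The median of the mean of replicates 2 and 3 minus replicate 4 over all genes was −0.18, and this shift should be set beside each value below.

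The interferon-list genes define the sides and are summarised here as a reference. The ligands were at the edge of detection. IFNL1 had 0, 13, 47 and 1 reads in replicates 1 to 4 and IFNL3 had 0, 10, 25 and 0. IFNB1 had 0, 3, 15 and 0 reads and IFNL2 had 0, 12, 10 and 0, both below the mean of 1 TPM, while IFNG had no read in any library. The IFNL genes are close paralogs, so the assignment of single reads among them is uncertain. Of the receptor genes, IFNAR1 was at 19.4, 15.1, 8.196 and 18.6 TPM, IFNAR2 at 3.37, 12.2, 10.3 and 12.2 TPM and IFNLR1 at 8.95, 6.39, 6.61 and 6.21 TPM in replicates 1 to 4, and none followed the split. Of 24 signalling and regulatory genes, 6 were higher, among them the ligands IFNL1 and IFNL3, the factors IRF7 and IRF9, and USP18, which removes ISG15 from proteins.

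The 6 genes with the widest gaps came from the antiviral effectors and from the IFI, GBP and ISG15 groups. MX2, a GTPase that blocks viral capsids, was at 0.208, 119, 130 and 0.136 TPM in replicates 1 to 4, with 3 reads in replicate 4. IFI6 was at 11.6, 2417, 2442 and 29.2 TPM and IFI27 at 8.34, 802, 687 and 3.93 TPM. Replicates 2 and 3 were close to each other in these genes and far above both others. IFI44L (0.0768, 18.7, 9.57 and 0.0455 TPM), BST2, the virus tether tetherin (0.888, 145, 120 and 2.90 TPM) and MX1 (3.88, 328, 344 and 8.47 TPM) completed the 6. By list, 20 of 51 antiviral effectors, 15 of 34 genes of the IFI, GBP and ISG15 groups and 18 of 208 wider interferon-responsive genes were higher, beside 0.871% higher and 0.929% lower over all genes. None of 35 antigen presentation genes was called. The 2 exceptions in the other direction were SSPN (5.87, 0.382, 0.188 and 1.59 TPM) and GBP2, a guanylate-binding GTPase (20.2, 2.002, 1.35 and 5.196 TPM), whose levels were lower in replicates 2 and 3 than in either other replicate.

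Promoters of a pair of genes from the interferon lists are shown beside those of a pair of genes outside them, since the response element can be read in the first pair. Both pairs were picked by hand as examples, so the contrast between them comes from the choice and is not a result. They run from 250 bases before to 50 after the RefSeq start (GRCh38.p14), 5′ to 3′ on the gene's strand, and capitals mark the letters of the interferon-stimulated response element searched on either strand, GAAA, any 2 bases and GAAA again. IFI6 lies at chr1:27672143-27672442 (minus strand, 3 matches), IFIT1 at chr10:89392373-89392672 (plus strand, 2 matches), UBE2L6 at chr11:57567886-57568185 (minus strand) and TMEM27, named CLTRN in RefSeq, at chrX:15664756-15665055 (minus strand).
IFI6: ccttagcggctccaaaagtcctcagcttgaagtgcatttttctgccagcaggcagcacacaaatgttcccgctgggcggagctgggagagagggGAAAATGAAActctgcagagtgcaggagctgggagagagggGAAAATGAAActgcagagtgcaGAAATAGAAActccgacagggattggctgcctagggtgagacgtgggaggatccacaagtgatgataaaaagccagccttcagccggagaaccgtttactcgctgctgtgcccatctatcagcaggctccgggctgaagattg
IFIT1: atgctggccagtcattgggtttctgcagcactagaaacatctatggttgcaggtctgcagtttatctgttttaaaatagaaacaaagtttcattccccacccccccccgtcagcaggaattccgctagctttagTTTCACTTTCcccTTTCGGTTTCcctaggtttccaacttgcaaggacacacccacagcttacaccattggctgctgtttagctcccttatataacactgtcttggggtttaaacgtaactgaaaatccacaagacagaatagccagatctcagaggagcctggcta
UBE2L6: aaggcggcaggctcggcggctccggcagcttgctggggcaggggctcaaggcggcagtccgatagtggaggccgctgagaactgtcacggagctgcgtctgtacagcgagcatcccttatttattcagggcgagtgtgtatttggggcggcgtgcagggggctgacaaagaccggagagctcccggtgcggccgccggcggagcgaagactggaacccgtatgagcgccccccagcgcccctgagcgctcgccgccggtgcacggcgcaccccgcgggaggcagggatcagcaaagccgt
TMEM27: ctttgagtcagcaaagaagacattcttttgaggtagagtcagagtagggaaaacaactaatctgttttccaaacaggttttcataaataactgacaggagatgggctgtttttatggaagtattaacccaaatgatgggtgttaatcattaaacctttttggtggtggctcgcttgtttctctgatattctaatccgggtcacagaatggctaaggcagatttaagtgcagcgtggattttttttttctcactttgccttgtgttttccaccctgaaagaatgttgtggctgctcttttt
The letters were found in 3.57% of 35116 RefSeq promoters of this length, and another motif, TTCNNNGAA on either strand, in 7.66%. A comparison of these shares between gene groups was void, since only 37 of the 48 higher genes, 84 of the 111 lower genes and 42 of the 58 interferon-list genes had a promoter in the table, under 80% in each. UBE2L6 and TMEM27 held no match in their windows, and nothing follows from this about the factor.

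Outside the lists, the gene with the most reads and a link to the interferon response was UBE2L6, the E2 enzyme that passes ISG15 to its targets, which is known to be interferon-induced but was missing from the lists used. UBE2L6 was at 54.3, 586, 514 and 197 TPM in replicates 1 to 4. The smallest ratio was 2.61 (replicate 3 over replicate 4, 95% interval 2.50 to 2.73). It lies on chromosome 11 from 57319128 to 57335803 (hg19), on the other strand from SMTNL1 (57310114 to 57317747), which was higher too. SMTNL1, a smoothelin-like protein of muscle, was at 0, 16.1, 5.600 and 1.30 TPM, with 176 and 83 reads in replicates 2 and 3.

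AMH, the anti-Müllerian hormone of the TGF-β family, had the widest gap of the 48. Its level was 0.577, 9.50, 4.68 and 0.579 TPM in replicates 1 to 4, and its smallest ratio was 8.08 (replicate 3 over replicate 4, 95% interval 3.91 to 19.4). Replicates 1 and 4 were almost equal, although replicate 1 had 26 reads and replicate 4 had 8. C4BPB, a chain of the complement inhibitor C4b-binding protein, followed with 0, 2.46, 3.46 and 0.440 TPM and a smallest ratio of 5.603 (interval 1.88 to 22.5). Both genes were low, with at most 117 reads in any library.

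IL1R2, CARD9 and SIRPB2, which act in immune signalling, stood among the 15 widest. IL1R2, the decoy receptor that binds interleukin-1 without signalling, was at 0.484, 6.19, 5.37 and 1.26 TPM, and its smallest ratio was 4.25 (interval 2.47 to 7.78). CARD9, the adaptor of fungal recognition receptors, was at 1.14, 4.61, 3.30 and 1.26 TPM. SIRPB2, of the signal-regulatory protein family, was at 0.552, 3.72, 1.96 and 0.616 TPM. The chemokine CCL22, named after its values were seen, had 9, 48, 31 and 10 reads. The 4 genes stayed below 10 TPM in every library, and replicates 1 and 4 were close to each other in CARD9 and SIRPB2.

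TMEM27, FERMT3 and ASB2 were also in this group. TMEM27, collectrin, was at 5.52, 18.7, 21.5 and 3.57 TPM in replicates 1 to 4, with a smallest ratio of 3.38 (replicate 2 over replicate 1, interval 2.77 to 4.12). FERMT3, the integrin activator kindlin-3, was at 0.564, 4.30, 2.18 and 0.841 TPM, and it overlaps TRPT1 on the other strand. ASB2, a subunit of a ubiquitin ligase, was at 0.111, 2.93, 1.40 and 0.524 TPM. TMEM27 had the highest level of the 3 and was the only one with replicate 1 above replicate 4.

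ANGPTL6, an angiopoietin-like secreted protein, was at 0.0439, 8.27, 5.64 and 1.93 TPM, and CCNA1, cyclin A1, at 0.0715, 2.94, 2.75 and 0.933 TPM. In both genes replicate 1 was far below replicate 4. ANGPTL6 overlaps the interferon-list gene C19orf66 on the other strand, and C19orf66 had 9.48, 58.5, 61.0 and 16.8 TPM. The sources used here do not say whether reads were counted by strand, so reads of overlapping genes cannot be told apart. FAM86B1 was at 1.92, 9.07, 6.66 and 2.37 TPM, with the limit that it belongs to a family of near-identical copies.

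**Figure D2:**
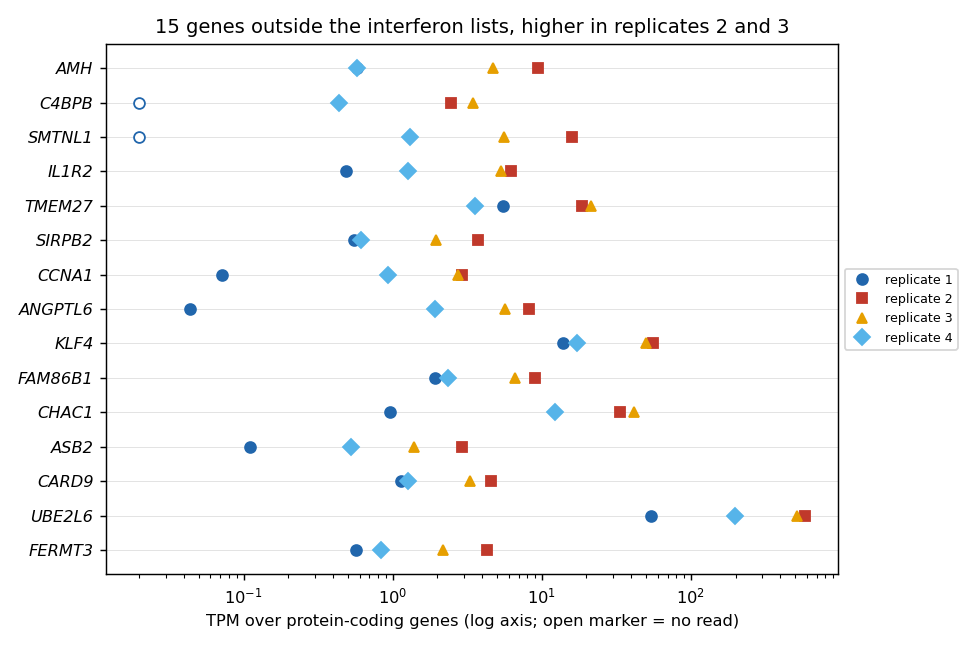
TPM over protein-coding genes (log axis) of the 15 genes outside the interferon lists with the widest gap between the sides and at least 20 reads in both replicates 2 and 3, one marker per library, ordered from the widest gap (AMH, top). In every row replicates 2 (square) and 3 (triangle) lie to the right of replicates 1 (circle) and 4 (diamond), as the rule for a call requires. An open marker stands for a library without a read.

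The transcription factors KLF4 and FOSL1 were among the higher genes. KLF4, which drives the terminal differentiation of epidermis, was at 13.9, 55.6, 50.1 and 17.3 TPM in replicates 1 to 4, and its smallest ratio was 2.89 (replicate 3 over replicate 4, interval 2.58 to 3.24). FOSL1, the AP-1 subunit FRA1, was at 3.26, 572, 347 and 170 TPM, with a smallest ratio of 2.05 (interval 1.95 to 2.15). FOSL1 was the highest of the 48 in replicate 2 after UBE2L6, and replicate 4 lay far above replicate 1. It fell below the 2-fold limit when TPM was computed over all genes and when libraries were centred by GC content and length. FOSL1 was the only one of 28 immediate early and serum response genes that was called.

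Stress-related genes appeared singly. CHAC1, which degrades glutathione and is a target of the amino acid response, was at 0.957, 33.7, 41.8 and 12.3 TPM and was 1 of 28 genes of the unfolded protein and amino acid response list. AEN, a nuclease induced by p53, was at 4.89, 55.9, 66.1 and 21.9 TPM and was 1 of 21 p53 targets. It lies 3356 bases from the interferon-list gene ISG20 on chromosome 15, which was at 1.38, 23.7, 15.6 and 2.52 TPM. OSGIN1, of the oxidative stress response, was at 12.4, 35.4, 55.7 and 17.4 TPM and was 1 of 25 NRF2 targets, and it fell below the limit in 4 alternatives. The other members of these lists were not called in either direction.

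In the metallothionein list 2 of 5 genes examined were higher, beside 0.406% of all genes outside the interferon lists. SLC30A1, the zinc exporter, was at 13.9, 29.7, 32.7 and 11.2 TPM in replicates 1 to 4. MT1G, one of several similar metallothionein genes, had 2, 6, 13 and 0 reads and passed the mean of 1 TPM only through replicates 2 and 3. SLC30A1 fell below the 2-fold limit with median-of-ratios scaling, and MT1G when libraries were centred by GC content and length. MT2A, which the interferon lists hold, was far higher, at 700, 4348, 5245 and 1758 TPM, and it followed the split as well. The median of the 5 for replicates 2 and 3 minus replicate 4 was 1.48 on the log2 scale, beside −0.18 over all genes.

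Among the higher genes outside the naming rule, picked after their values were seen, were genes of mitochondria, the nucleolus and RNA modification. PPIF, the mitochondrial cyclophilin D, was at 57.3, 307, 343 and 119 TPM and NOCT, the NADP(H) phosphatase nocturnin, at 1.87, 28.5, 20.9 and 8.73 TPM. CD3EAP, a subunit of RNA polymerase I, was at 7.21, 51.7, 47.4 and 22.1 TPM, NOP2, a methyltransferase of ribosomal RNA, at 27.6, 112, 115 and 54.4 TPM, and METTL1, a methyltransferase of tRNA, at 13.3, 50.2, 45.4 and 21.9 TPM. TNFRSF10A, a death receptor of TRAIL, was at 23.4, 74.1, 61.2 and 29.9 TPM. Replicate 4 lay above replicate 1 in each of these genes. PPIF, NOCT and CD3EAP were called under all 6 scalings described below, whereas NOP2, METTL1 and TNFRSF10A were not.

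In 103 of the 111 lower genes replicate 1 was farther from replicates 2 and 3 than replicate 4 was, as in 45 of the 48 higher genes. The same held in 46 of the 58 higher interferon-list genes. Over all genes examined, replicate 1 differed by at least 2-fold from replicates 2 and 3 in 42.7% and 47.8%. For replicate 4 these shares were 6.84% and 22.98%, so the greater distance of replicate 1 was not particular to the called genes. MMP12, a metalloelastase, was at 32.1, 0.641, 0.770 and 3.43 TPM in replicates 1 to 4, with a smallest ratio of 4.45 (replicate 4 over replicate 3, interval 2.38 to 8.96). MMP13, the collagenase-3, was at 145, 12.2, 13.3 and 38.5 TPM, with a smallest ratio of 2.88 (interval 2.53 to 3.29). These proteases are neighbours on chromosome 11, between 102733460 and 102826463 (hg19), and both were lower in replicates 2 and 3. MMP13 was the only one of 36 mesenchymal and matrix genes past the limit in all 4 pairs. Against replicate 4 alone 6 of the 36 were lower and 1 was higher. Among all genes outside the interferon lists these shares were 1.96% lower and 1.07% higher. The median of the list against replicate 4 was −0.89, beside −0.18 over all genes. Against replicates 1 and 4 together the sign changed, with a median of 0.45 beside −0.09 over all genes.

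COLCA1 had the widest gap of the lower genes, at 7.81, 0.0479, 0.0354 and 0.428 TPM, from 1192, 2, 2 and 20 reads. COLCA2, which overlaps it on the other strand, was at 8.54, 0.675, 0.0624 and 2.18 TPM. Reads of these overlapping genes cannot be told apart, so the 2 may not be separate observations. A further neighbouring pair on chromosome 5 held FAM173B (8.96, 1.88, 1.35 and 6.24 TPM) and the semaphorin SEMA5A (73.8, 9.69, 3.57 and 19.4 TPM), which lay just inside the limit.

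A further 6 of the 15 widest lower genes had varied roles. SEMA6D, a semaphorin, was at 55.3, 0.627, 0.176 and 1.93 TPM, so that replicate 4 was nearer to replicates 2 and 3 than to replicate 1. SLC6A2, the noradrenaline transporter, was at 5.98, 1.83, 0.646 and 5.94 TPM, and CACNG6, a calcium channel subunit, at 10.03, 3.49, 1.99 and 11.9 TPM. In these last genes replicates 1 and 4 were close. PLCXD3 was at 5.35, 0.408, 0.0863 and 1.21 TPM, MAP2K6, a kinase that activates p38, at 5.32, 0.391, 0.530 and 1.57 TPM, and ALPK1, a kinase that senses a bacterial sugar, at 3.70, 0.694, 0.185 and 1.98 TPM. Replicate 1 was the highest of the 4 libraries in each of these 3 genes.

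Secreted proteins, enzymes and a zinc finger protein completed the 15. PRSS22, a serine protease, was at 47.0, 11.4, 12.9 and 38.6 TPM, with a smallest ratio of 2.99 (interval 2.48 to 3.61). PROC, the anticoagulant protein C, was at 30.4, 2.03, 1.88 and 6.03 TPM and LTC4S, the leukotriene C4 synthase, at 15.7, 2.93, 3.67 and 10.7 TPM. ZNF214, a zinc finger protein, was at 1.85, 0.620, 0.584 and 1.96 TPM. Within each side the values of PRSS22 and ZNF214 were close.

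**Figure D3:**
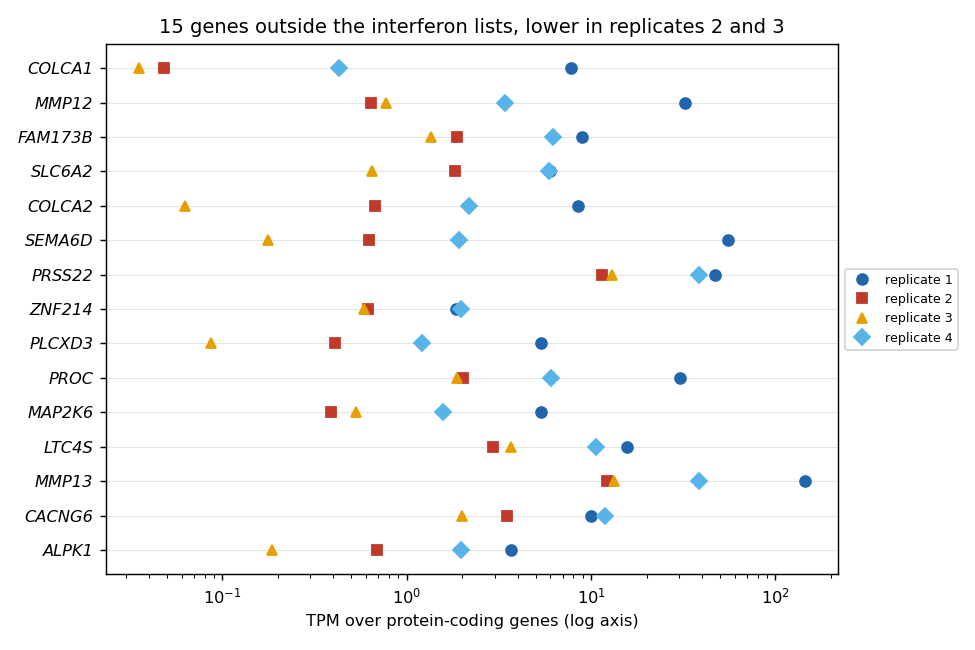
TPM over protein-coding genes (log axis) of the 15 genes outside the interferon lists with the widest gap in the other direction and at least 20 reads in both replicates 1 and 4, one marker per library, ordered from COLCA1 (top). Replicates 2 (square) and 3 (triangle) lie to the left of both other libraries in every row, as the rule for a call requires. Replicate 1 (circle) is often well to the right of replicate 4 (diamond).

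Keratinocyte genes were split between the directions. KRT15, a keratin of basal cells, was at 13064, 458, 239 and 1308 TPM in replicates 1 to 4, with a smallest ratio of 2.85 (replicate 4 over replicate 2, interval 2.77 to 2.94), and it was 1 of 15 genes of basal keratinocyte adhesion. IVL, the cornified envelope protein involucrin, was at 202, 5.49, 4.06 and 14.9 TPM. MAF, a factor of late differentiation, had 921, 3, 4 and 14 reads, and CNFN, cornifelin, was at 3.90, 1.71, 1.05 and 4.58 TPM. Of 24 epidermal differentiation genes, MAF, IVL and CNFN were lower and KLF4 and SPRR2A were higher. Among all genes outside the interferon lists 0.939% were lower and 0.406% were higher. SPRR2A, one of several similar genes of small proline-rich proteins, had 8, 15, 11 and 2 reads. CNFN had 50, 6, 5 and 18 reads. The intervals of the smallest ratios of CNFN (0.977 to 6.51) and SPRR2A (0.995 to 42.3) reached below 1. None of 15 stress and wound keratins and alarmins and none of 9 simple epithelial keratins was called.

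Single genes of further lists were lower. INSIG1, which retains the sterol sensor in the endoplasmic reticulum, was at 113, 47.3, 36.8 and 124 TPM and was 1 of 24 genes of cholesterol synthesis. HMMR, a spindle-associated hyaluronan receptor, was at 106, 35.5, 17.9 and 72.1 TPM and was 1 of 27 mitosis genes, whose median against replicate 4 was −0.74. HEY1, a repressor downstream of Notch, was at 10.8, 2.74, 1.99 and 6.09 TPM and was 1 of 23 WNT and Notch genes. All 3 fell below the limit when TPM was computed over all genes, and INSIG1 then had a smallest log2 difference of −0.26, so its sides overlapped.

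A few lower genes of BMP signalling are named after their values were seen, without a list behind them. ID1, an inhibitor of helix-loop-helix factors induced by BMPs, was at 2985, 848, 733 and 1793 TPM, and ID4 was at 65.9, 7.26, 6.09 and 16.7 TPM. SMAD6, an inhibitor of the pathway, was at 75.5, 19.7, 13.2 and 47.1 TPM. ID1 had the smallest counting error of the group, with 6951 reads in the lowest library and a smallest ratio of 2.11 (interval 2.06 to 2.17). BMPER, which binds BMPs outside the cell, was higher in replicates 2 and 3, at 1.014, 4.28, 2.26 and 1.040 TPM. ID4 and BMPER were called under all 6 scalings described below, whereas ID1 and SMAD6 were not.

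The lists without a called gene were NF-κB targets and cytokines (23 examined), S phase (28), hypoxia and glycolysis (27), the aryl hydrocarbon receptor (8), mitochondrially encoded genes (13) and cancer-testis, imprinted or methylation-silenced genes (6). Medians against replicate 4 were 0.13 for NF-κB targets and 0.21 for S phase, beside −0.18 over all genes. Against replicates 1 and 4 together they were 1.19 and 0.47, beside −0.09 over all genes. Called cytokine genes that the interferon lists hold were counted there and not with the NF-κB targets. The 13 mitochondrial genes had a median of −0.94 against replicate 4 and of 1.13 against replicates 1 and 4 together, since replicate 1 was low in them. With at most 28 genes in each list and 0.406% and 0.939% called among genes outside the interferon lists, a count of 0 or 1 does not set a list apart.

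**Figure D4:**
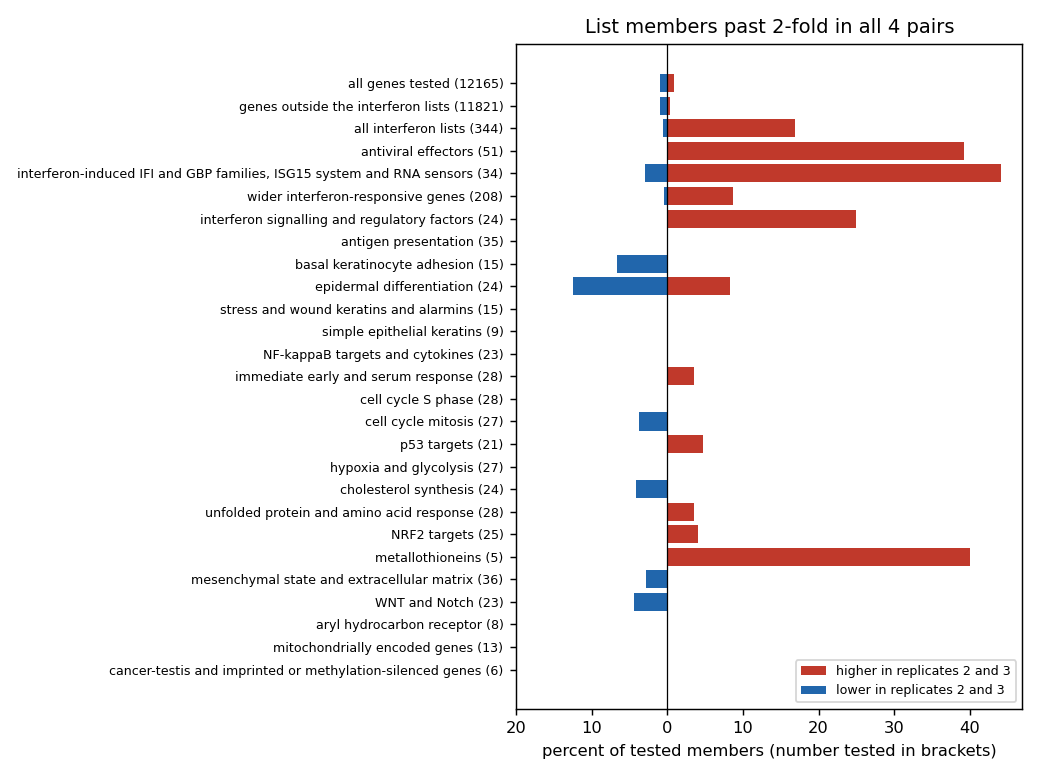
Percent of the examined members of each list that were at least 2-fold higher (red, to the right) or lower (blue, to the left) in replicates 2 and 3 in all 4 pairs, with the number examined in brackets. The longest bars belong to the IFI, GBP and ISG15 groups (15 of 34), the metallothionein list and the antiviral effectors (20 of 51). In the metallothionein list (2 of 5) the called genes are MT1G, which had few reads, and the zinc exporter SLC30A1. Antigen presentation has none (0 of 35), and most lists outside interferon have no bar or a bar of 1 gene.

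Markers of other cell types were examined in the same libraries. The summed level of 15 keratinocyte markers was 19499, 18311, 13815 and 15424 TPM in replicates 1 to 4, and none was at 0. Those of 10 fibroblast markers (20.4, 46.0, 31.3 and 54.9 TPM) and 8 melanocyte markers (9.55, 9.76, 4.56 and 8.32 TPM, TYR at 0 throughout) did not separate the sides. The sums of 8 endothelial markers were 5.602, 9.37, 8.14 and 9.89 TPM, with KDR, PECAM1 and TEK at 0 throughout. The 18 leukocyte markers summed to 13.9, 63.7, 51.9 and 41.1 TPM, so that replicates 2 and 3 lay above both others, with CD3D, FCGR3A, MS4A1 and TYROBP among those at 0 throughout and PTPRC, the common leukocyte antigen, at 3 reads in replicate 1 and 0 in the others. CD68, a lysosomal protein of macrophages and other cells, was the highest of them in every library and was called, at 7.94, 43.9, 38.2 and 16.1 TPM. The other markers examined were highest in replicate 4: CORO1A was at 1.64, 10.1, 7.77 and 14.03 TPM and CD14 at 3.03, 8.08, 4.99 and 8.92 TPM, and the median of the 3 markers examined against replicate 4 was −0.49. The fibroblast markers differed in which library was highest. COL1A2 had 0, 7, 102 and 0 reads, COL6A3 had 0, 4, 92 and 0 and COL3A1 had 10, 3, 134 and 28, with the most in replicate 3. COL1A1 had 72, 194, 100 and 377 reads, with the most in replicate 4, while DCN (186, 0, 26 and 0 reads) and LUM (172, 0, 23 and 6 reads) were highest in replicate 1. COL1A2 was past the 2-fold limit in all 4 pairs but was not examined, since its mean was under 1 TPM. Their part in the lower or higher genes was not tested.

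The higher genes outside the lists were short and rich in G and C. Their median length was 1865 bases against 3276 over all genes examined, and their median GC content was 55.9% against 49.1%. In the shortest tertile of genes 35 of 3940 (0.888%) were higher, and in the longest 1 of 3941 (0.0254%). By GC content, 3 of 3891 (0.0771%) were higher in the lowest tertile and 28 of 3892 (0.719%) in the highest. The lower genes had a median GC content of 45.6% and a median length of 3432 bases. From the lowest to the highest tertile of GC content, 1.26%, 0.720% and 0.822% were lower. When each library was centred within bins of GC content, 61 genes were higher and 41 of them were among the 48, and with length bins as well the numbers were 51 and 32. Whether length and GC content play a part in these calls was tested no further.

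**Figure D5:**
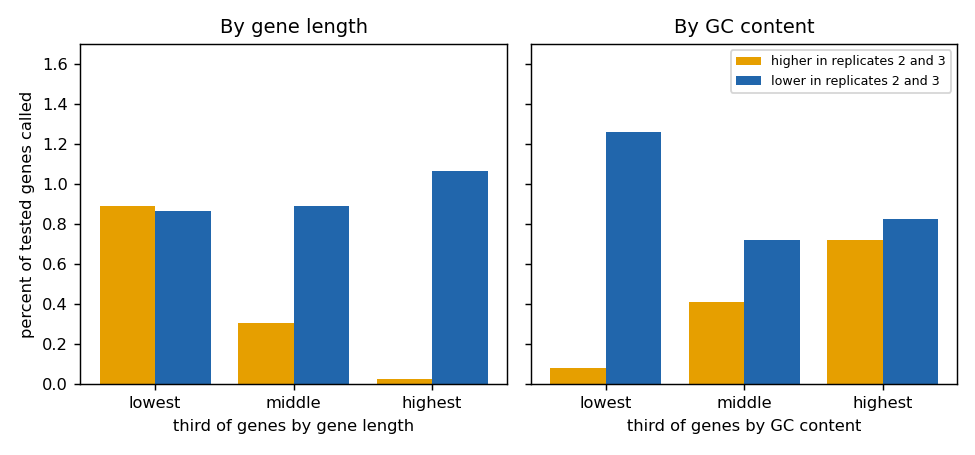
Percent of examined genes outside the interferon lists that were higher (orange) or lower (blue) in replicates 2 and 3, by tertile of gene length (left) and of GC content (right). Higher genes go from 0.888% in the shortest tertile to 0.0254% in the longest and from 0.0771% in the lowest tertile of GC content to 0.719% in the highest, while lower genes vary less.

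Neighbouring called genes were mostly interferon families. In the order of the files' positions, 2 runs of 3 genes were called in the same direction, IFIT2, IFIT3 and IFIT1 on chromosome 10 and OAS1, OAS3 and OAS2 on chromosome 12. Of 13 neighbouring pairs, 4 held no interferon-list gene: SMTNL1 and UBE2L6 among the higher genes, and MMP12 and MMP13, COLCA1 and COLCA2, and SEMA5A and FAM173B among the lower genes. Within 100 kb of a called interferon-list gene lay 4 of the 48 higher genes, namely AEN, ANGPTL6, HSPB9 and MT1G. Another gene on the other strand overlapped 16 of the 48 higher and 45 of the 111 lower genes. The shares over all genes examined were not counted for distance or overlap, so these counts do not set the called genes apart. Beyond protein-coding genes, 1.63% of 4285 genes of other types were higher and 1.8% were lower by the same limit, beside 0.871% and 0.929% of protein-coding genes.

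The scaling set the balance of the directions. Of the called genes outside the lists, 30.2% were higher with TPM over protein-coding genes, 44.7% with TMM scaling (76 higher and 94 lower), 43.4% with median-of-ratios scaling (69 and 90) and 64.3% with TPM over all genes (54 and 30). The median log2 difference between the sides over all genes was −0.09, 0.04, 0.02 and 0.62 on these scales. Under all 6 scalings tried, GC and length centring included, 26 higher and 19 lower genes outside the lists and 53 higher interferon-list genes were called. The 26 included 14 of the 15 named higher genes, all but CARD9, and the 19 included 4 of the 15 named lower genes, COLCA2, MMP12, PROC and SEMA6D. KRT15 and IVL were also among the 19.

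At the limit of 2-fold, C19orf48, SPDYA and CTRL were just inside the higher group, with smallest ratios of 2.001 to 2.004, and CIART, DDX39A and NOP16 were just outside it, with 1.981 to 1.992. On the other side PGLYRP3, CCDC146 and SEMA5A were just inside, with 2.005 to 2.008, and SCD and FBXO32 just outside, with 1.992 and 1.998. C19orf48 was at 67.6, 174, 168 and 84.0 TPM and DDX39A at 148, 293, 336 and 141 TPM. SCD, the stearoyl-CoA desaturase, was at 1279.6, 627, 307 and 1249.8 TPM. Genes on either side of the limit thus differed little.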

How the data were processed

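Total RNA of 4 untreated HaCaT cultures was sequenced and 1 table per library was analysed. Per the labels' processing notes the build was hg19 and HISAT2, HISAT, TopHat2 and Bowtie2 are named without a role or version; the counting program, annotation, strandedness and RNA selection are not given in the sources used here. The authors deposited raw counts of reads for 44591 genes, a gene length, and RPKM (replicates 1 and 2) or TPM over all genes (replicates 3 and 4). The serum in the medium is 12% per the labels, and the study's methods differ from that.

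TPM over protein-coding genes was recomputed from the deposited counts and lengths, since the deposited RPKM and TPM are different units. Genes with a mean of at least 1 TPM were examined. Counts under 3 were raised to 3, and a gene was called at 2-fold in all 4 pairs between replicates 2 and 3 and replicates 1 and 4. Ratios have 95% Clopper-Pearson intervals conditional on the 2 counts. Since the sides were chosen from these data, no test between the sides was run. The members and lists were chosen with earlier results of these data known.

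Named were the 15 genes per direction outside the interferon lists with the widest gap and at least 20 reads in both libraries of the higher side, up to 4 called genes of each list, the 6 widest interferon-list genes, 3 genes on each side of the limit and neighbouring called genes. A few genes that this rule or the lists hold are not reported here. The 29 lists comprise 5 interferon lists, 19 programmes and 5 cell types. The procedure was tested on simulated libraries that were alike in composition. Replicate 1 differed from the others, so the simulation does not reach the spread of these data. GC content came from GENCODE release 29 (GRCh38), found for 98.8% of examined genes. Alternatives were folds of 1.5 and 3, TMM (edgeR 4.0.16) and median-of-ratios scaling (DESeq2 1.42.0; R 4.3.3), TPM over all genes, no filter or a mean of 5 TPM, a pseudocount of 1 TPM, thinning of replicate 1, centring within 20 bins of GC content, and leaving out each replicate. Centring by GC content and length together was added after seeing the data. The software was Python 3.11.15 with pandas 2.3.3 and NumPy 2.4.6, SciPy 1.17.1 for the intervals and matplotlib 3.10.9 for figures.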

Additional observations from a re-analysis of the deposited data

Results flagged for a closer look

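Genes of other types were called as well. Of 4285 with a mean of at least 1 on the same scale, 70 (1.63%) were higher and 77 (1.8%) were lower in replicates 2 and 3 in all 4 pairs. The shares over protein-coding genes were 0.871% and 0.929%. Some of the higher ones had no read in replicate 1, such as RNR1 with 0, 33323, 45589 and 16521 reads in replicates 1 to 4. The sides were chosen from interferon genes of these libraries.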

How the results depend on the processing

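The higher genes outside the lists, 48 with the settings used, numbered 217 at a fold of 1.5, 10 at a fold of 3, 76 with TMM scaling, 98 without a filter, 26 at a mean of at least 5 TPM and 31 with a pseudocount of 1 TPM. The lower genes, 111, numbered 524, 9, 94, 175, 59 and 45 under the same settings and 30 with TPM over all genes. The 2 lower interferon-list genes became 6 at a fold of 1.5 and 1 at a fold of 3, with TPM over all genes, at a mean of 5 TPM and with the pseudocount. Thinning replicate 1 kept 47 of the 48 and 107 of the 111. Leaving out 1 library at a time gave 107 (without replicate 2) to 2091 (without replicate 4) higher and 156 (without replicate 3) to 1848 (without replicate 4) lower genes outside the lists, and 63 to 142 higher and 2 to 25 lower interferon-list genes. Without replicate 1 the numbers outside the lists were 126 and 232, without replicate 2 the lower genes were 1493, and without replicate 3 the higher genes were 212. Fewer pairs had to pass with a library left out, and no other cause was tested. No named gene was called in the opposite direction in any alternative. Of 1065 values of named genes 165 moved by at least the spread within the sides. Of 870 list counts 164 changed by more than a factor of 1.5 or from 0. Depth limits genes such as MT1G and COLCA1, with 0 to 3 reads in a library. No paired analysis was possible because the labels give 1 group, whose replicate numbers pair nothing.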

Other observations

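Among the genes of other types, the widest separation lay at LOC728688, annotated as a pseudogene on chromosome 12 from 20704503 to 20707294 (hg19). It had 241, 37561, 49376 and 656 reads in replicates 1 to 4, or 3.55, 2024, 1968 and 31.5 on the TPM scale. The smallest log2 ratio between the sides was 5.96, between those of IFI27 (6.36) and BST2 (5.37). The gene lies within PDE3A, which had 83, 0, 10 and 5 reads. A processed pseudogene that GENCODE release 29 (GRCh38) places inside LOC728688 holds 1399 words of 25 bases, and 88.4% of them occur in a transcript of UHRF1, a protein of DNA methylation maintenance, and in no transcript of another gene. UHRF1 itself, on chromosome 19, had 1783, 2059, 2936 and 1996 reads and did not follow the split. How the counting treats reads that match more than 1 place is not given in the sources used here, so the level of LOC728688 is uncertain.

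Smaller genes of other types were separated as well. ENSG00000225886.1, an antisense gene overlapping IFI6 on chromosome 1, had 0, 31, 37 and 2 reads, and these cannot be told apart from reads of IFI6 without strand. LINC01534 on chromosome 19 was lower in replicates 2 and 3, with 51, 3, 4 and 23 reads, and LOC101928403 on chromosome 2 had 96, 6, 5 and 24.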
